A study of Mus musculus with 4 samples.

Results

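The 10 genes described here encode enzymes and 1 chaperone that modify collagen after its synthesis, and they were measured in mouse periosteal cells sorted by a PDGFRα reporter. They were chosen by name as the rows *P4ha1*, *P4ha2*, *Plod1*, *Plod2*, *Serpinh1*, *Lox*, *Loxl1*, *Loxl2*, *Loxl3* and *Loxl4* of a table of 45802 gene symbols, and all 10 had a value in each of the 4 libraries. The mice carried CreER under the *Pdgfra* promoter together with the mT/mG reporter, so that tamoxifen turned membrane tdTomato into membrane GFP in cells with an active promoter. The cells came from male mice that had received tamoxifen (150 mg/kg daily for 5 days) and rested for another 14 days, the same for both populations. The labels give an age of 2 months at tamoxifen and of 9 to 10 weeks for the mice used, without saying at which step the second age was taken. Cells of the hindlimb bone surface were grown for 1 passage with 10 ng/mL bFGF and then sorted as CD31-, CD45- and Ter119-, either GFP+ (PDGFRα reporter+) or tdTomato+ (PDGFRα reporter-). A cell in which recombination failed is counted as reporter-. Each sorted population was pooled from 3 to 6 mice per the labels and from 5 to 8 mice per the methods. Total RNA of 2 libraries per population was sequenced.

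Fibrillar collagen is built as a procollagen of 3 chains in the endoplasmic reticulum (ER). Prolyl 4-hydroxylases hydroxylate proline residues, which keeps the triple helix stable at body temperature, and lysyl hydroxylases hydroxylate lysine residues, which later carry sugars and form cross-links. The chaperone Hsp47, product of *Serpinh1*, binds the folded helix and travels with it towards the Golgi. After secretion and removal of the propeptides, lysyl oxidases, which are copper enzymes, oxidize lysine and hydroxylysine side chains so that neighboring molecules join covalently. The hydroxylases need iron, oxygen, 2-oxoglutarate and ascorbate, and several of their genes and *Lox* are known targets of the hypoxia-inducible factor HIF-1 in other cells.

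The values were log2 expression values deposited after quantile normalization, with a median of 1.48 and a range from −10.07 to 11.73 in every library. A difference of 1 on this scale is a doubling. Values were listed for 15423 to 15605 genes per library, and the depth is unknown. The table numbers the libraries of each population 2 and 3, whereas the labels number the replicates 1 and 2, so libraries are named here by the number in the table. Nothing in the labels says that libraries came from separate animals or cultures, so p-values measure the spread between these samples. Fewer cells of a type and less RNA per cell cannot be told apart in such bulk samples. The unit under the logarithm is not given in the sources used here, so levels are compared between libraries, for 1 gene or for the sum of a fixed list, and never between genes or lists.

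Of the 10 genes, 5 had a higher mean in reporter+ libraries and 5 a lower one, and none passed the test. The 4 hydroxylase genes were all on the higher side, by 0.26 to 0.45 on the log2 scale, and 4 of the 5 lysyl oxidase genes were on the lower side, with differences from −0.36 to −0.01, and with *Lox* 0.27 higher. The limma model left out the library number, with p-values adjusted by Benjamini-Hochberg across the 14415 genes that had 4 values. Each of the 10 genes had an adjusted limma p of 1, from unadjusted p of 0.179 (*Loxl3*) to 0.979 (*Loxl4*). No gene of the whole table was called either (0% of 14415), beside 131 genes (0.909%) with an unadjusted p under 0.05, none of them among the 10. An exact permutation test of 2 libraries against 2 cannot give a two-sided p below 0.333.

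The RefSeq promoter table on GRCm38.p6, the build named in the submitters' processing notes, had entries for 5 of the 10 genes. The 250 bases before the start are shown for the hydroxylase and chaperone genes among them. Capitals mark ACGTG, a form of the core of a hypoxia response element, and its reverse complement CACGT. The bases are printed so that the windows with and without these letters can be set beside the values of the genes.
P4ha1, chr10:59323046-59323295, + strand: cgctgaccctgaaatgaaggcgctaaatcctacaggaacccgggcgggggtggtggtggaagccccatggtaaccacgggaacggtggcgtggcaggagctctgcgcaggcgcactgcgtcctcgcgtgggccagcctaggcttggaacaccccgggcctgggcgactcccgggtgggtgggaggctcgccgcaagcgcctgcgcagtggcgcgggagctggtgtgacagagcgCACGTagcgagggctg
P4ha2, chr11:54100674-54100923, + strand: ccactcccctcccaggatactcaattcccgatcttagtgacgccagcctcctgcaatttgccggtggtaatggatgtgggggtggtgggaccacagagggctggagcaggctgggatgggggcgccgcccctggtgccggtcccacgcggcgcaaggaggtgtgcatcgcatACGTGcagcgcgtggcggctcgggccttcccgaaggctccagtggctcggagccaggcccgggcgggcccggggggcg
Plod1, chr4:147936777-147937026, - strand: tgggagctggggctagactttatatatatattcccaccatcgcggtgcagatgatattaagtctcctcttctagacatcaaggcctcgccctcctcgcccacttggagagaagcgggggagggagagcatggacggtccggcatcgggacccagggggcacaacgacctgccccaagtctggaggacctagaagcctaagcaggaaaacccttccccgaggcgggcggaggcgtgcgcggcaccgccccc
Serpinh1, chr7:99353240-99353489, - strand: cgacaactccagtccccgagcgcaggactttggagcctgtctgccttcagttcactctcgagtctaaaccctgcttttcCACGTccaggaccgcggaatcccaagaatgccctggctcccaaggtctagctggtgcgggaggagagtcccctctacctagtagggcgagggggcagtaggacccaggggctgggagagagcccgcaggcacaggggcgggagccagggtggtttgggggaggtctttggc
The *P4ha2* window lies inside the GENCODE M21 gene, which starts farther upstream than the RefSeq start. ACGTG was searched on both strands. GCGTG, the other form of the core, was not searched. It or its reverse complement stands unmarked in the windows of *P4ha1*, *P4ha2*, *Plod1* and *Loxl4*. The first base of ACGTG lay 16 bases before the start in *P4ha1* on the opposite strand, 78 bases before it in *P4ha2* on the same strand and 171 bases before it in *Serpinh1* on the opposite strand. No copy of ACGTG was in the window of *Plod1*, nor in that of *Loxl4* (chr19:42612807-42613056, - strand). ACGTG was present in 16.6% of the 32851 promoter windows of the table, so a match is a description and not a site. The letters GAANNTTC, a core of the heat shock element, were in none of the 5 windows and in 6.69% of all windows. GGGCGG, the core of a GC box, was in all 5 windows, 3 times in *Loxl4*, and in 32.7% of all windows.

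*P4ha1* (chr10:59323296-59373304, + strand, GENCODE M21 on GRCm38) encodes a catalytic subunit of prolyl 4-hydroxylase. Log2 values were 5.42 and 5.82 in reporter+ libraries 2 and 3, and 5.34 and 5.37 in reporter- libraries 2 and 3. Both reporter+ libraries lay above both reporter- libraries, an order found for 7.59% of the genes tested. The mean difference was 0.26 (SE 0.19, 95% interval −0.25 to 0.77), which is 1.20-fold. Within number 2 the difference was 0.07 and within number 3 it was 0.45, so most of the gap lay between reporter+ library 3 and the other three libraries. The promoter window with ACGTG close to the start belongs to this gene.

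*P4ha2* (chr11:54100095-54131665, + strand) encodes the other widely expressed catalytic subunit of the enzyme. It had log2 values of 4.31 and 5.19 in reporter+ libraries and 4.25 and 4.64 in reporter- libraries, in the order of library 2 and library 3. The populations overlapped, with both libraries numbered 3 above both numbered 2. The difference was 0.31 (SE 0.35, 95% interval −0.62 to 1.23). It was 0.06 within number 2 and 0.55 within number 3, and −0.14 without reporter+ library 3.

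*Plod1* (chr4:147909753-147936767, - strand) encodes lysyl hydroxylase 1, which acts on lysines of the helix. The log2 values were 5.84 and 5.22 in reporter+ libraries 2 and 3, against 5.70 and 4.46 in the reporter- libraries. Reporter- library 3 was low, and reporter- library 2 lay between the reporter+ libraries. The difference of 0.45 was the most positive of the 10 genes (1.37-fold, SE 0.48, 95% interval −0.83 to 1.74). It was 1.10-fold within number 2 and 1.70-fold within number 3. Without reporter- library 3 the difference was −0.17.

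*Plod2* (chr9:92542223-92608428, + strand) encodes lysyl hydroxylase 2, which acts on lysines of the telopeptides and so sets which cross-links form. Its log2 values were 6.01 and 5.65 in reporter+ libraries 2 and 3, and 5.83 and 5.09 in reporter- libraries 2 and 3. The pattern was that of *Plod1* on a smaller scale, with reporter- library 3 lowest and overlapping populations. The difference was 0.37 (SE 0.31, 95% interval −0.45 to 1.20), made of 0.18 within number 2 and 0.56 within number 3. Without reporter- library 3 it was −0.0002.

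Between library numbers the 4 hydroxylase genes differed in both directions. *P4ha1* and *P4ha2* were higher in the libraries numbered 3, by 0.40 and 0.88 in reporter+ cells and by 0.03 and 0.39 in reporter- cells. *Plod1* and *Plod2* were lower there, with number 3 minus number 2 at −0.62 and −0.36 in reporter+ cells and at −1.24 and −0.75 in reporter- cells. Their relatives outside the 10 genes, chosen here after their values were seen, went the other way. *P4ha3*, another catalytic subunit gene, was lower in number 3 (number 3 minus number 2 of −2.24 in reporter+ and −2.14 in reporter- cells), and *Plod3* was higher (0.06 and 0.25). The 4 hydroxylase genes among the 10 were higher in reporter+ cells within each number, a direction that held within both numbers for 22.1% of the genes tested. *P4ha3* and *Plod3* did not keep that direction, with 0.08 and 0.08 within number 2 and −0.02 and −0.10 within number 3. The median difference of the 4 genes was 0.34, with 0.11 within number 2 and 0.56 within number 3, against −0.0035 over all genes tested. Without reporter- library 3 the median of the 4 genes was 0.14.

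*Serpinh1* (chr7:99345376-99353239, - strand), the Hsp47 gene, had the narrowest range over the 4 libraries among the 10 genes. The libraries gave log2 values of 7.29 and 7.54 in reporter+ libraries and 7.37 and 7.54 in reporter- libraries, in the order 2 and 3. The populations overlapped, and both libraries numbered 3 were above both numbered 2. The difference was −0.04 (SE 0.20, 95% interval −0.58 to 0.50), with −0.08 within number 2 and −0.0011 within number 3. It was 0.08 without reporter+ library 2 and 0.04 without reporter- library 3.

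**Figure D1:**
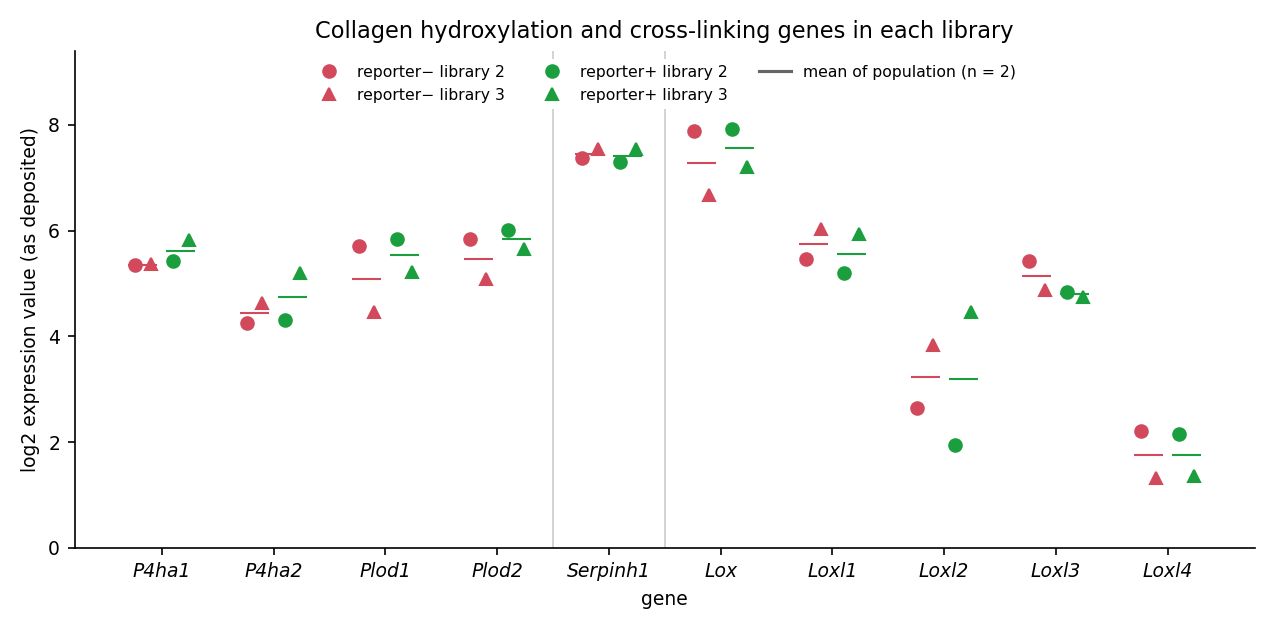
Log2 expression value as deposited (vertical axis) of the 10 genes in each library, with hydroxylases on the left, *Serpinh1* in the middle and lysyl oxidases on the right; circles are libraries numbered 2, triangles libraries numbered 3, green reporter+, red reporter-, and bars the mean of 2 libraries. The populations of *P4ha1* and *Loxl3* do not overlap, 2 of the 10 genes beside 15.7% of all genes tested, and *Loxl2* runs from 1.95 to 4.45 within reporter+ cells alone.

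*Lox* (chromosome 18, positions 52516067 to 52529867, - strand) encodes lysyl oxidase itself. Its log2 values were 7.91 and 7.19 in reporter+ libraries 2 and 3, and 7.88 and 6.67 in reporter- libraries 2 and 3. The libraries numbered 2 were nearly equal and reporter- library 3 was the lowest. The difference was 0.27 (SE 0.50, 95% interval −1.06 to 1.61), with 0.03 within number 2 and 0.52 within number 3. It was −0.33 without reporter- library 3 and 0.88 without reporter- library 2. *Lox* and *Plod1* were the pair with the most similar profiles, since their values centered on each gene's mean differed by at most 0.139 in any of the 4 libraries.

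*Loxl1* (chr9:58287738-58313186, - strand) encodes a lysyl oxidase-like enzyme best known for elastic fibers. In log2 units it measured 5.19 and 5.94 in reporter+ libraries 2 and 3 and 5.46 and 6.02 in reporter- libraries 2 and 3. The libraries numbered 3 were both above those numbered 2, and the populations overlapped. The difference was −0.18 (SE 0.34, 95% interval −1.08 to 0.73), with −0.27 within number 2 and −0.08 within number 3. It was 0.20 without reporter+ library 2 and 0.10 without reporter- library 3.

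*Loxl2* (chr14:69609068-69695834, + strand) encodes an enzyme with scavenger receptor domains that oxidizes collagen IV among other targets. Its log2 values were 1.95 and 4.45 in reporter+ libraries 2 and 3, and 2.64 and 3.84 in reporter- libraries 2 and 3. The reporter+ libraries were the lowest and the highest of the 4, with the reporter- libraries between them. Library 3 exceeded library 2 by 5.66-fold in reporter+ cells and by 2.31-fold in reporter- cells. The mean difference between populations was −0.04 with a wide interval (SE 0.94, 95% interval −2.54 to 2.46). It was −0.69 within number 2 and 0.61 within number 3, and it was 1.21 without reporter+ library 2 and 0.56 without reporter- library 3. Its difference between numbers was larger than that of 98.3% of the 10224 genes whose mean log2 value was 0 or above.

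*Loxl3* (chr6:83034173-83052562, + strand) encodes another member of the scavenger receptor group. Log2 values stood at 4.84 and 4.75 in reporter+ libraries 2 and 3 and 5.41 and 4.88 in reporter- libraries 2 and 3. Both reporter+ libraries lay below both reporter- libraries, an order found for 8.1% of the genes tested, and reporter- library 2 stood highest. The difference of −0.36 was the most negative of the 10 genes (SE 0.22, 95% interval −0.95 to 0.24), which is 0.782 of the reporter- level. It was −0.58 within number 2 and −0.13 within number 3, so here, unlike in the hydroxylases, the larger gap was within number 2. Without reporter- library 2 the difference of *Loxl3* was −0.09, and those of *Loxl1* (−0.455) and *Loxl2* (−0.64) were more negative. Without reporter- library 3 the difference of *Loxl3* was −0.62. *Loxl3* overlaps *Htra2*, a mitochondrial protease gene on the opposite strand, whose own values were 2.98 and 3.31 in reporter+ libraries and 2.99 and 3.42 in reporter- libraries. The libraries were stranded, but how reads were counted is not given in the sources used here.

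*Loxl4* (chr19:42593982-42612813, - strand) encodes the remaining lysyl oxidase-like enzyme. The gene had log2 values of 2.15 and 1.35 in reporter+ libraries 2 and 3 and 2.20 and 1.32 in reporter- libraries 2 and 3. Libraries with the same number were close, and the numbers were apart in both populations. The difference was −0.01 (SE 0.44, 95% interval −1.17 to 1.15), with −0.06 within number 2 and 0.03 within number 3. It was 0.38 without reporter+ library 3 and 0.43 without reporter- library 2. None of the other genes that overlap *Loxl2*, *Loxl3*, *Lox* or *Plod2* in GENCODE M21 had a value in the table.

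**Figure D2:**
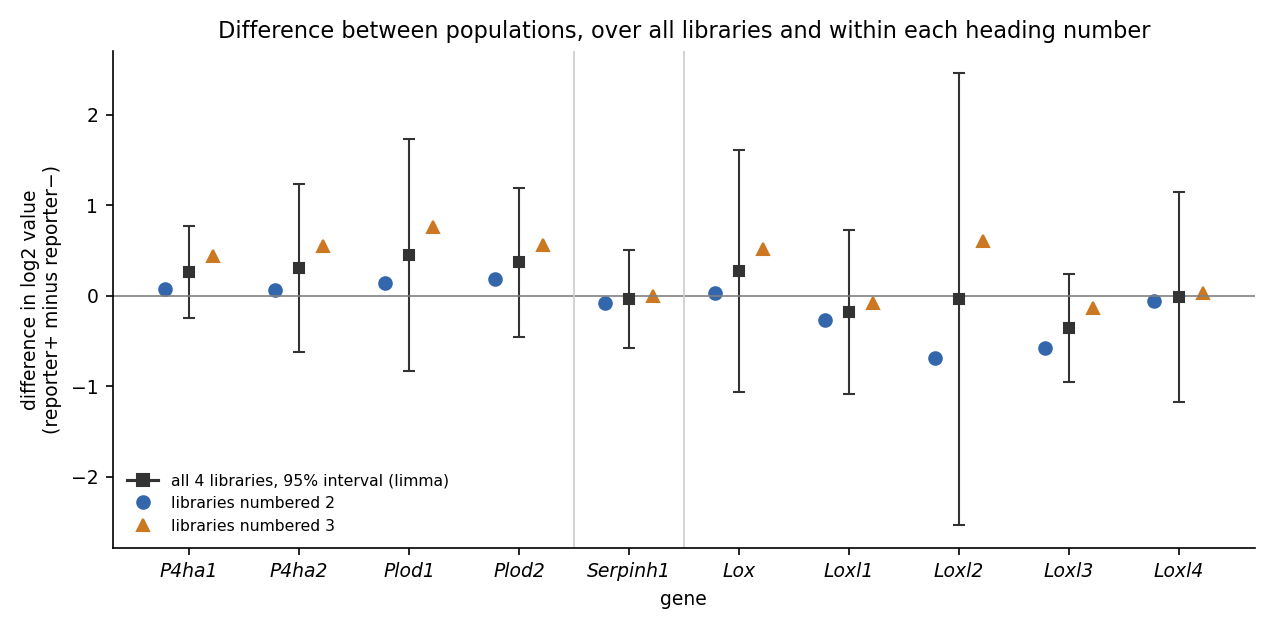
Difference in log2 value, reporter+ minus reporter- (vertical axis), of each gene: squares with bars are the limma estimate over 4 libraries with its 95% interval, circles the difference within libraries numbered 2 and triangles that within libraries numbered 3. Every interval, from the fit without the library number, includes 0, and the triangle is above the circle for all 10 genes.

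For all 10 genes the difference was more positive within number 3 than within number 2, by 0.08 in *Serpinh1* to 1.30 in *Loxl2*, a direction found for 47.1% of the genes tested. It was positive within both numbers for *Lox*, *Plod1*, *Plod2*, *P4ha1* and *P4ha2*, negative within both (24.8% of the genes tested) for *Loxl1*, *Loxl3* and *Serpinh1*, and of opposite sign (53.2%) for *Loxl2* and *Loxl4*. The median over the 10 genes was 0.12 over the 4 libraries, −0.01 within number 2 and 0.48 within number 3, against −0.0035, 0.0011 and −0.02 over all genes tested. It was −0.04 without reporter+ library 3 and 0.02 without reporter- library 3. With 1 library of each population in a number, this change was not tested. Reporter- library 3 was the lowest of the 4 libraries for *Lox*, *Loxl4*, *Plod1* and *Plod2*, an order found for 22% of the genes tested.

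The difference between library numbers was larger than that between populations for 8 of the 10 genes, all but *Loxl3* and *P4ha1*, as it was for 75.7% of the genes tested. It had the same sign in both populations for each of the 10, as it did for 73.8% of the genes tested. *Loxl1*, *Loxl2*, *P4ha1*, *P4ha2* and *Serpinh1* were higher in libraries numbered 3, and *Lox*, *Loxl3*, *Loxl4*, *Plod1* and *Plod2* were lower there. What the number marks is not given in the labels.

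**Figure D3:**
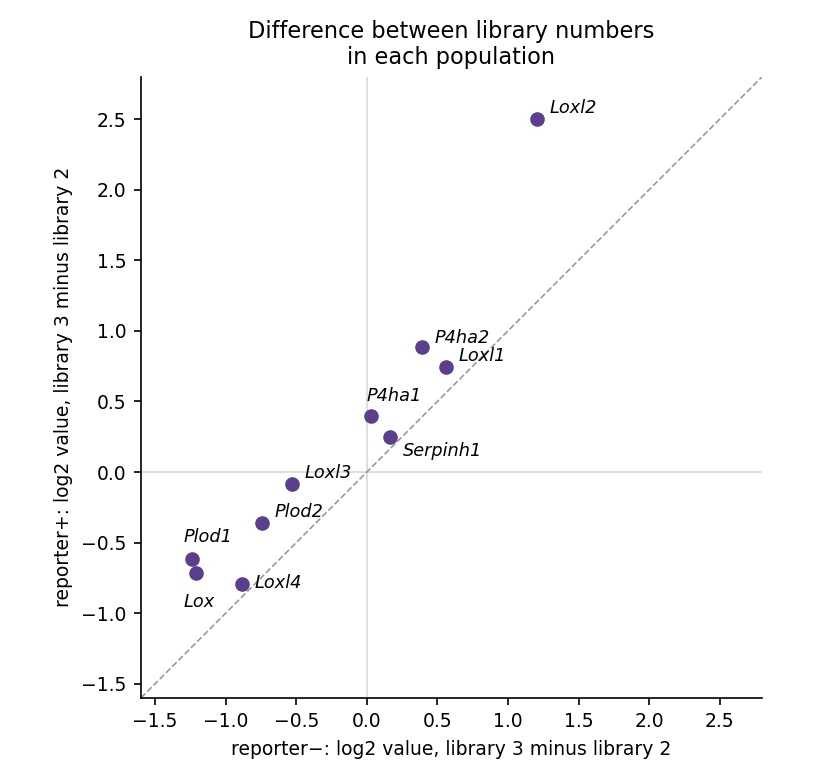
Difference in log2 value between library 3 and library 2 in reporter- cells (horizontal axis) and in reporter+ cells (vertical axis), 1 point for each of the 10 genes; the dashed line marks equal differences. All points lie above the line, and *Loxl2* is farthest from 0 with 1.21 in reporter- and 2.50 in reporter+ cells.

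Lists of further genes give the rest of the pathway, and no gene in them passed the adjusted threshold. The other collagen-modifying proteins of the ER had a value in all libraries for 13 of 14 genes; 11 had a higher and 2 a lower mean in reporter+ cells, with a median difference of 0.09. The median was 0.16 without reporter+ library 2, 0.05 without reporter+ library 3 and 0.04 without reporter- library 2. *P4hb*, the β subunit that both prolyl 4-hydroxylases share, had log2 values of 8.22 and 8.39 in reporter+ libraries 2 and 3 and 8.21 and 8.15 in reporter- libraries 2 and 3. Its populations did not overlap, and the difference was 0.12 (SE 0.22). *P3h4*, which encodes a partner of lysyl hydroxylase 1, had the most positive difference among genes of the list whose mean log2 value was 0 or above, 0.13, with 4.74 and 4.90 against 4.59 and 4.78. *P3h2*, a prolyl 3-hydroxylase gene with a mean below 0 that was chosen after its values were seen, differed by 0.84 (SE 0.58), with −0.16 and 0.40 against −1.41 and −0.04. *Plod3*, the lysyl hydroxylase that also transfers sugars, had the most negative one, −0.01, with 5.77 and 5.83 against 5.69 and 5.94. This list had medians of 0.08 within number 2 and 0.06 within number 3; its contrast with the 4 hydroxylases was not tested.

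Of the 8 genes of procollagen trafficking, 5 were higher and 3 lower, with a median of 0.02. Within number 2, 1 of the 8 was higher (median −0.07), and within number 3, 7 were (median 0.07). Without reporter+ library 2 the median was 0.12, without reporter+ library 3 it was −0.03 and without reporter- library 3 it was −0.07. *Creb3l1*, a transcription factor of secretory genes in bone, was 0.40 higher (SE 0.40), with 0.18 within number 2 and 0.62 within number 3. *Tmem38b*, an ER cation channel gene, differed by −0.04 (SE 0.23). The 10 genes of propeptide processing and lysyl oxidase activation were 5 higher and 5 lower, with a median of −0.0015. The median was 0.08 within number 2 and −0.03 within number 3, −0.20 without reporter- library 2 and 0.14 without reporter- library 3. *Bmp1*, whose product cleaves both the C-propeptide of procollagen and the propeptide of lysyl oxidase, had 4.93 and 5.45 in reporter+ libraries against 4.87 and 5.48 in reporter- libraries, a difference of 0.01. *Adamts3*, an N-propeptidase gene, had the most positive difference, 0.89 (SE 0.41), with 0.30 within number 2 and 1.49 within number 3. *Fn1*, the fibronectin gene, had the most negative difference, −0.54 (SE 0.46), and both of its reporter+ libraries (10.29 and 9.41) lay below both reporter- libraries (10.47 and 10.30).

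The substrate genes, 9 fibrillar collagen chains and elastin, were 3 higher and 7 lower with a median of −0.07. The median was −0.02 within number 2 and −0.05 within number 3, −0.02 without reporter+ library 3 and −0.04 without reporter- library 2. *Col1a1* and *Col1a2*, the chains of type I collagen, differed by −0.12 (SE 0.23) and −0.06 (SE 0.35). *Col3a1*, the chain of type III collagen, was most positive with 0.39 (SE 0.60), from 9.85 and 10.78 in reporter+ libraries against 9.37 and 10.49 in reporter- libraries. *Col2a1*, the cartilage collagen, was most negative with −1.51 (SE 1.57), from 2.86 and −1.33 against 3.32 and 1.23. Of the 5 genes of copper and ascorbate supply, 4 had a value in all libraries. Of these 4, 3 were higher and 1 lower, with a median of 0.11. The median was −0.09 within number 2, where 0 of the 4 were higher, and 0.34 within number 3, and it was −0.10 without reporter- library 3 and 0.0021 without reporter+ library 3. The copper importer *Slc31a1* was 0.16 higher (SE 0.26), and the copper chaperone *Atox1* differed by −0.17 (SE 0.15).

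HIF-1 target genes outside collagen were listed because several of the 10 genes are known targets of the same factor. Among the 14, reporter+ cells had a higher mean for 11 and a lower mean for 3, with a median of 0.21, −0.02 within number 2 and 0.67 within number 3. The difference was more positive within number 3 for 11 of the 14. Reporter- library 3 was the lowest library for 9 of the 14 and the highest for 2. Without reporter- library 3 the median of the list was −0.02, and without reporter- library 2 it was 0.49. *Car9*, a carbonic anhydrase gene, was most positive, 1.35 (SE 1.08), with 2.63 and 0.85 in reporter+ libraries against 1.70 and −0.91 in reporter- libraries. *Adm*, the adrenomedullin gene, was most negative, −0.11 (SE 0.54). The following were chosen after their values were seen. *Pgk1*, which encodes a glycolytic enzyme, had 7.40 and 7.48 in reporter+ libraries against 7.58 and 6.79 in reporter- libraries. *Pfkfb3*, a glycolytic regulator, had 3.52 and 3.28 against 2.99 and 2.44, and was the only gene of this list with an unadjusted limma p under 0.05, with an adjusted p of 1. *Bnip3*, a mitophagy receptor gene, had 5.48 and 5.13 against 5.54 and 4.28. *Vegfa* and *Ndrg1* were lower in reporter+ cells within number 3, with differences of −0.04 and −0.19, as was *Adm* with −0.44. Whether the list and the 10 genes move together was not tested.

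**Figure D4:**
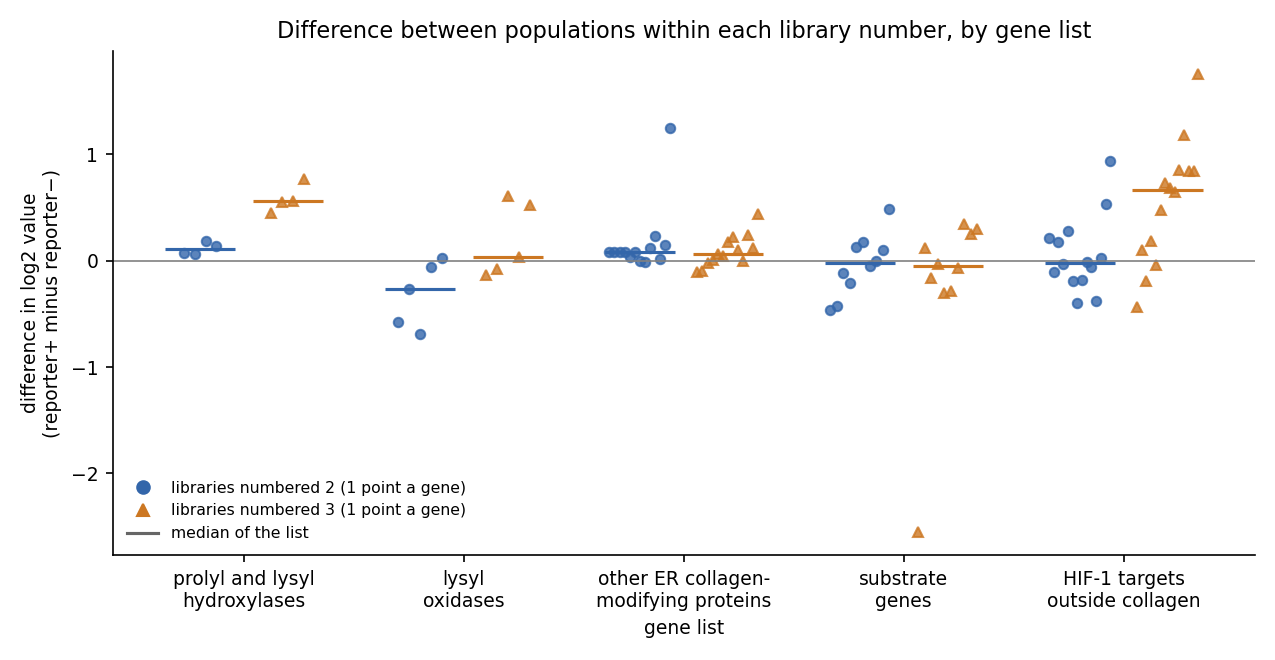
Difference in log2 value, reporter+ minus reporter- (vertical axis), of each gene within libraries numbered 2 (circles) and numbered 3 (triangles), grouped by list on the horizontal axis; bars are the median of the list. The 4 hydroxylases have medians of 0.11 and 0.56, and the HIF-1 targets −0.02 and 0.67.

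Markers of cell types are given beside these genes, and none of them passed the adjusted threshold in the limma test above. All 8 stromal fibroblast markers had values in each library, and 3 had a higher and 5 a lower mean in reporter+ cells. *Dcn*, the decorin gene, was at the upper end with a difference of 1.39 (SE 0.39) and no overlap, and *Postn*, the periostin gene, was at the lower end with −1.14 (SE 1.45). *Pdgfra* had 7.78 and 7.62 in reporter+ libraries against 7.87 and 7.44 in reporter- libraries. The promoter of this gene drives CreER, and its transcript overlapped between the sorted populations, with a difference of 0.05 (SE 0.24). All 11 macrophage markers had a higher mean in reporter+ cells, although CD45+ cells had been gated out, and their summed linear values were 237 to 279 there against 94.7 to 179 in reporter- cells. Without *Lyz2*, the lysozyme gene, the sums were 36.1 to 44.2 against 17.7 to 26.9. Of the 5 endothelial markers, 4 had values in all libraries and all 4 were lower in reporter+ cells, with sums over the list of 0.113 to 0.136 against 0.946 to 1.67. All 4 had both reporter+ libraries below both reporter- libraries, as did 8.1% of the genes tested. Their unadjusted limma p was under 0.05, as for 0.909% of the genes tested. *Pecam1*, the CD31 gene, had −4.68 and −4.79 against −1.99 and −1.11, and CD31+ cells had been gated out of both populations. Of the 6 smooth muscle and pericyte markers, 5 were lower, with sums of 6.52 to 26.1 against 22.6 to 39.0. Osteoclast markers had 4 values for 3 of 4 genes, all 3 with a higher mean in reporter+ cells, and sums of 2.76 to 4.90 against 0.887 to 2.13. Osteoblast markers likewise had 4 values for 3 of 4 genes, all 3 higher, with sums of 2.81 to 4.69 against 1.70 to 2.82. Of the 3 chondrocyte markers 1 was higher and 2 were lower, with sums of 2.88 to 11.6 against 5.16 to 15.1. Of the 5 proliferation markers 2 were higher and 3 lower, with sums of 8.77 to 15.4 against 11.05 to 13.5. Schwann cell markers had 4 values for 2 of 3 genes, 1 higher and 1 lower, with sums of 0.251 to 0.368 against 0.356 to 0.389. Of the 5 skeletal muscle markers *Myf5* and *Pax7* had no value in any library and *Acta1* alone had 4 values, with a difference of −2.01 (SE 0.80), and the sums were 0.264 to 0.435 against 0.379 to 1.84. Of the 3 erythroid markers *Hbb-bs* and *Alas2* had no value, and *Hba-a1* had one in reporter+ library 2 alone, −4.70. The part of these markers in the differences of the 10 genes was not tested.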

How the data were processed

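Total RNA of 2 PDGFRα reporter+ and 2 PDGFRα reporter- libraries was sequenced by the authors as stranded paired-end Illumina libraries. The submitters' processing notes name bcl2fastq 2.17.1.14, Partek 7.0 and GRCm38.p6, and the aligner, counting and annotation are not given in the sources used here. The authors deposited quantile-normalized log2 values, 1 per symbol and library, with blanks where no value was listed. Libraries share 1 distribution, so a change of total RNA cannot be seen. Columns were assigned to populations by their headings, and 0 columns were left unmapped.

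Differences are the reporter+ mean minus the reporter- mean. limma 3.58.1 in R 4.3.3 (lmFit, eBayes with a variance trend, no block, two-sided) was fitted to the 14415 genes with 4 values, with Benjamini-Hochberg adjustment and a threshold of 0.05, after being tested on simulated data. Summaries used Python 3.11.15. Marker sums added linear values, 2 raised to the log2 value, with blanks as 0. The 10 genes and the lists were chosen with earlier results of these data known. From each further list the text names the genes of highest and lowest difference among those whose mean log2 value is 0 or above, together with *P4hb*, *Plod3*, *Bmp1*, *Col1a1*, *Col1a2* and *Col3a1*, and genes named beyond this rule, markers aside, are marked as chosen after their values were seen. Symbols were matched exactly, and RefSeq lists *Loxl2* as an older name of *Loxl3*. Alternatives were a replicate block, no variance trend, a pseudocount of 1, a minimum mean of 0, filled blanks, centering, each number alone and each library left out.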

Additional observations from a re-analysis of the deposited data

Results flagged for a closer look

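For *Loxl2* the populations differed in opposite directions within the library numbers, by −0.69 on the log2 scale within number 2 and by 0.61 within number 3. The same was seen for *Loxl4*, with −0.057 within number 2 and 0.033 within number 3. Each number holds 1 library of each population, so neither difference between the numbers was tested, and 53.2% of the genes tested had opposite signs.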

How the results depend on the processing

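The count of genes with an adjusted limma p under 0.05 was 0 in every setting but the replicate block, with 62 to 273 genes at an unadjusted p under 0.05. With the heading number as a replicate block it was 29 genes (0.201%), beside 913 (6.33%) unadjusted, and none of the 10 genes was among the 29. Of the genes in the further lists and the markers, only the macrophage marker *Tyrobp* was among them, with an adjusted limma p of 0.0437. *Plod1*, *Plod2* and *Loxl3* then had unadjusted limma p of 0.0174, 0.0205 and 0.0285 and adjusted p of 0.515, 0.549 and 0.641. The labels do not say what the number marks. Deviations from the population means of same-numbered libraries had a correlation of 0.681 across 14415 genes, which are not independent replicates. A pseudocount of 1 turned the difference of *Loxl2* to 0.0032, the 1 reversal among 60 values of the 10 genes outside the leave-one-out settings and the single numbers. The median of the 10 genes was −0.014 within number 2 and 0.48 within number 3.

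Leaving out each library in turn left 0 genes called, a median of −0.038 to 0.18 and 5 to 7 genes higher. The range of the difference was −0.33 to 0.88 for *Lox*, −0.55 to 0.20 for *Loxl1*, −1.29 to 1.21 for *Loxl2*, −0.62 to −0.09 for *Loxl3*, −0.45 to 0.43 for *Loxl4*, −0.17 to 1.07 for *Plod1*, −0.0002 to 0.75 for *Plod2*, 0.06 to 0.46 for *P4ha1*, −0.14 to 0.75 for *P4ha2* and −0.16 to 0.082 for *Serpinh1*, so *Loxl3* and *P4ha1* alone kept their sign. The sign turned without reporter- library 3 for *Lox*, *Plod1*, *Plod2*, *Loxl1* (0.10), *Loxl2* (0.56) and *Serpinh1* (0.043), without reporter+ library 2 for *Lox* (−0.085), *Loxl1*, *Loxl2* and *Serpinh1*, without reporter+ library 3 for *P4ha2*, *Loxl4* (0.38) and the median of the 10 genes, and without reporter- library 2 for *Loxl4* (0.43). Such settings unbalance the numbers, and the cause was not tested.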
